A study of Mus musculus with 6 samples.

Results

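The genes described here are the translation initiation factors of the mouse and the kinases that act on one of them, taken as every gene whose symbol begins with Eif and a digit from 1 to 6, pseudogene symbols left out. Of 24786 gene symbols counted, 55 met this rule, and 54 of these had enough counts to be tested. They were read by RNA sequencing in wild-type mouse intestinal organoids, epithelial structures cultured from the gut, dissociated to single cells and cultured for 16 h with tyramine at 100 µM (labelled TA100, 3 libraries) or without it (labelled DMSO, 3 libraries). Tyramine, a trace amine, is made from tyrosine by gut bacteria. The sample labels name DMSO for the control cultures and the design text names control medium, so it is not known here whether both groups held the solvent, or whether replicates came from separate mice or cultures. The p-values therefore measure library-to-library spread alone, and that spread may be technical.

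Initiation brings a ribosome to the start codon of an mRNA. In outline, eIF2 carries the initiator methionyl-tRNA to the small ribosomal subunit together with eIF1, eIF1A, eIF3 and eIF5, and the eIF4F complex (cap-binding eIF4E, scaffold eIF4G and helicase eIF4A) brings that subunit to the capped end of the mRNA. After the start codon is found, eIF5 promotes GTP hydrolysis by eIF2 and eIF5B joins the large subunit. There are 2 classical control points: kinases that phosphorylate the alpha subunit of eIF2 and so block its recharging by eIF2B, and the 4E-binding proteins, which keep eIF4E from eIF4G until the kinase mTORC1 releases it. In the intestinal epithelium, which renews itself continuously, this machinery serves both growth and the stress response. These controls act largely on proteins, which mRNA counts do not measure.

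Libraries held 29176428 to 32489563 counts with tyramine and 28316372 to 35035955 counts in controls. All 10 epithelial markers were detected, and their sum was 14910 to 16580 CPM with tyramine and 17260 to 18680 CPM in controls (CPM, counts relative to the library total after TMM normalization). Of these, 5 fell, among them Vil1 (log2 fold change -1.43) and Epcam (-0.44). Another 2 rose, Krt18 (0.67) and Cdh1 (0.39), and 3 did not pass the test. Sums of 8 fibroblast markers (9.63 to 10.1 CPM with tyramine, 10.0 to 10.7 CPM in controls), 8 immune markers (6.86 to 11.2 CPM and 5.97 to 9.57 CPM, with Cd79a at 0 counts) and 6 endothelial markers (0.209 to 2.61 CPM and 0.439 to 1.25 CPM) were low in both groups, and 0 of their 7 tested members passed the test (by edgeR, by DESeq2 or at an unadjusted p under 0.05). Of 15 proliferation markers, 14 fell, with sums of 172 to 204 CPM with tyramine and 2758 to 3378 CPM in controls. The part of this loss in the values below was not tested, and fewer cells of a type and less RNA per cell cannot be told apart in bulk samples.

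Many initiation factor mRNAs, but not all, were higher with tyramine. The ternary complex subunits Eif2s1 and Eif2s2, the start-codon factors Eif1, Eif5 and Eif5b, both eIF4A helicases, Eif4g2 and 7 of the 14 eIF3 genes rose by 1.27-fold to 1.82-fold, while the cap-binding protein gene Eif4e and the main scaffold gene Eif4g1 differed by less than the spread between replicates. In all, 20 of 54 tested members rose (37.0%), against 12.5% of the 12139 genes tested. None fell past the threshold, against 13.3% of all genes tested (quasi-likelihood test of edgeR at a Benjamini-Hochberg adjusted p under 0.05; at an unadjusted p under 0.05, 24 were higher and 4 lower). DESeq2 called 2 falling members and limma-voom 1. The median log2 fold change was 0.24 over the tested members and 0.00 over all tested genes, and it was positive for 39 of the 54, where 50.2% of all tested genes were positive. The 54 tested members held 24 whose 3 tyramine libraries all lay above the 3 control libraries, where 20.9% of all tested genes did so, and 6 that lay wholly below, where 23.6% of all did so. Without control replicate 1 the rising members numbered 12, and without control replicate 2 they numbered 10. The 10 that remained in every leave-one-out fit, and in the 8 other alternatives too, were Eif1, Eif2s1, Eif3c, Eif3d, Eif3j1, Eif3j2, Eif4a1, Eif4g2, Eif5 and Eif5b. Of these 10, Eif3j1 and Eif3j2 appear to repeat the same reads, as described below. The 55 members together took 1.83% to 1.96% of all counts with tyramine and 1.60% to 1.64% in controls.

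**Figure D1:**
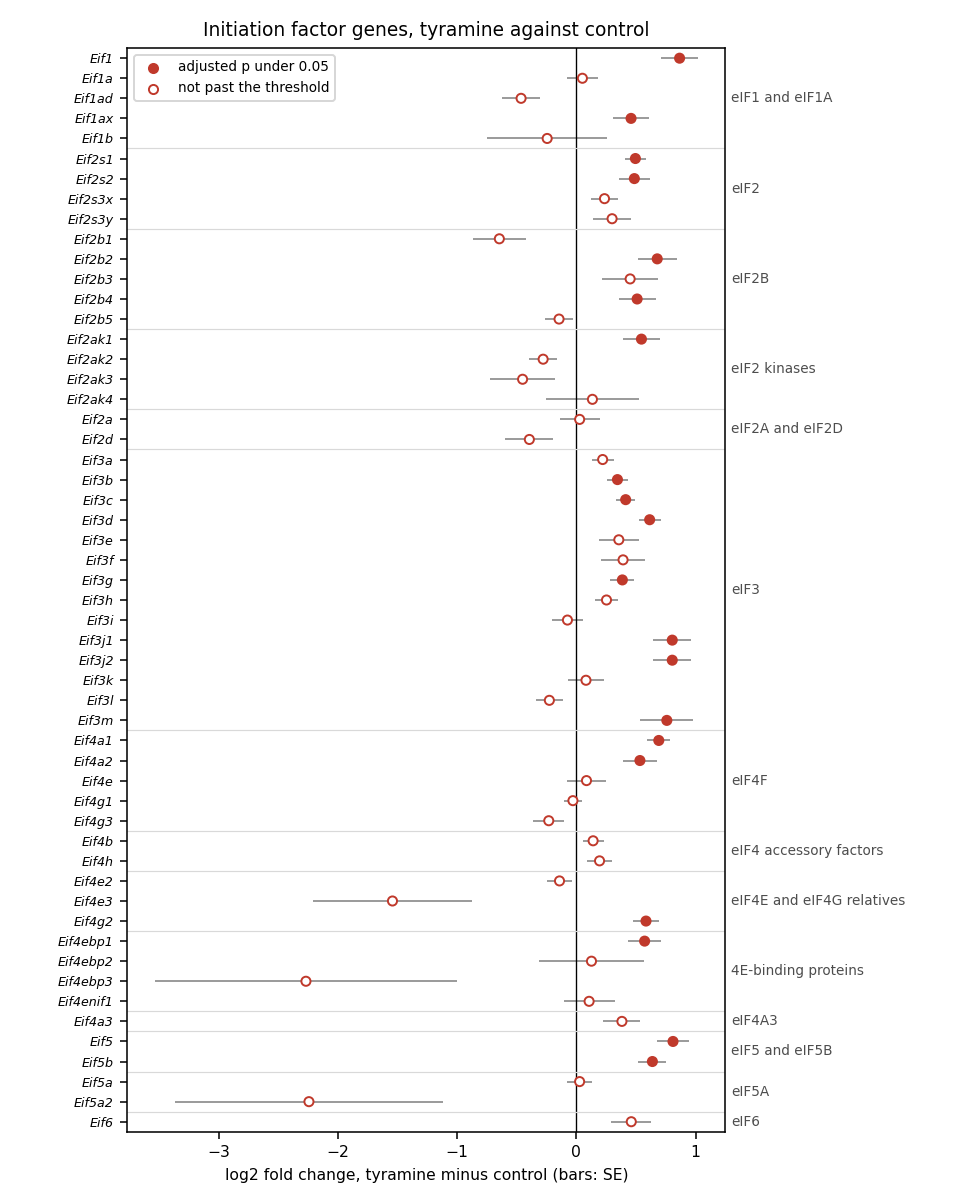
Log2 fold change (tyramine minus control, horizontal axis) of the 54 tested members by complex, with the SE as bars. Filled points passed the adjusted p threshold of 0.05: all 20 lie right of 0, from 0.34 to 0.87, and the widest bars belong to genes with few counts such as Eif5a2 and Eif4ebp3.

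Among the factors that act at the start codon, Eif1 and Eif5 had the highest log2 fold changes of the 20 rising members, just above Eif3j1 and Eif3j2, and Eif5b rose less. Eif1, whose product guards the choice of start codon (GRCm38 chromosome 11, 100319885 to 100322096, plus strand), had 169, 213 and 263 CPM in the tyramine libraries, against 121, 118 and 114 CPM in the control libraries. The groups did not overlap, and the tyramine libraries spread more widely than the controls. Its log2 fold change was 0.87 (SE 0.155; edgeR adjusted p = 0.0027), a 1.82-fold rise. Eif5, the GTPase activator of eIF2 and a partner of eIF1 in start codon choice (chromosome 12, 111538016 to 111546752, plus strand), had 820.3, 937 and 1146 CPM in the tyramine libraries, against 586, 586 and 484 CPM in the control libraries. It rose without overlap, by 1.75-fold (edgeR adjusted p = 0.0016; log2 fold change 0.81, SE 0.132). Eif5b, the GTPase of subunit joining, had 995, 1059 and 1101 CPM in the tyramine libraries, against 556, 721 and 752 CPM in the control libraries. Every tyramine library was above every control library, and control replicate 1 was the lowest of all (log2 fold change 0.64, SE 0.117; edgeR adjusted p = 0.0032). Its exons share 16.8% of their bases with the opposite-strand gene Rev1, and the sources do not say whether counting used strand.

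The eIF1A genes and relatives of these factors did not move as a group. Eif1ax, the X-linked eIF1A gene, averaged 92.1 ± 10.3 CPM with tyramine and 67.0 ± 7.08 CPM in controls (SD, n = 3 each) and rose 1.37-fold. That call was lost without tyramine replicate 2 or any 1 control library, with scaling to library totals alone, with no filter on low counts and with a replicate block. Its chromosome 18 copy Eif1a had a log2 fold change of 0.05 (SE 0.130), and Eif1b, an eIF1 paralog with 3.39 to 7.69 CPM over all libraries, had -0.24 (SE 0.503). Eif1ad, which encodes a protein with an eIF1A-like domain, had 66.5, 83.6 and 59.1 CPM in the tyramine libraries, against 104, 89.7 and 94.7 CPM in the control libraries. All 3 tyramine libraries were below the controls, but the difference did not pass the threshold (log2 fold change -0.46, edgeR adjusted p = 0.058). It passed in the negative direction by DESeq2, by limma-voom, with library totals alone and without tyramine replicate 2.

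Within eIF2 itself, the alpha and beta subunits rose and the gamma subunit genes did not pass the test. Eif2s1, which encodes the alpha subunit that the stress kinases phosphorylate (chromosome 12, 78861819 to 78887010, plus strand), had 406, 416 and 401 CPM in the tyramine libraries, against 272, 296 and 300.4 CPM in the control libraries. The groups were well apart and each was tight: 408 ± 7.78 CPM with tyramine and 289 ± 15.6 CPM in controls (SD, n = 3 each), a 1.41-fold rise (log2 fold change 0.49, with SE 0.0891; edgeR adjusted p = 0.0028). The beta subunit gene Eif2s2 had 839, 740.3 and 619.5 CPM in the tyramine libraries, against 454, 528 and 588 CPM in the control libraries. Here tyramine replicate 3 and control replicate 3 nearly met, and the 1.40-fold rise (log2 fold change 0.49, with SE 0.132) lost its call without tyramine replicate 1 or 2, without control replicate 1 or 2, and with a replicate block. Eif2s3x, the X-linked gamma subunit gene, had 309, 268 and 259.9 CPM in the tyramine libraries, against 214, 237 and 260.2 CPM in the control libraries, and the groups overlapped. Its Y-linked copy Eif2s3y had 52.4, 54.1 and 62.5 CPM in the tyramine libraries, against 46.9, 44.5 and 46.0 CPM in the control libraries, with no overlap. The log2 fold changes were 0.24 (SE 0.113) and 0.30 (SE 0.159), neither past the threshold. Per length, Eif2s3y made up 25.1% to 32.3% of the gamma subunit counts with tyramine and 26.0% to 30.3% in controls. The copies are closely related in sequence, so their split depends on a counting rule that is not given.

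Of the 4 eIF2 kinase genes, only Eif2ak1 passed the test. Eif2ak1 encodes HRI, which responds to lack of haem and to mitochondrial and oxidative stress (chromosome 5, 143817788 to 143904251, plus strand). It had 93.7, 114 and 83.6 CPM in the tyramine libraries, against 72.5, 65.9 and 60.8 CPM in the control libraries. Without overlap it rose 1.46-fold (log2 fold change 0.55, with SE 0.155; edgeR adjusted p = 0.027), a call lost without tyramine replicate 2, without any 1 control library and with library totals alone. Eif2ak2, the gene of the double-stranded RNA sensor PKR, had 141, 129.8 and 149 CPM in the tyramine libraries, against 155, 164 and 190.2 CPM in the control libraries. It lay lower in all 3 tyramine libraries (log2 fold change -0.28, SE 0.120; edgeR adjusted p = 0.12), and was called falling with library totals alone.

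Eif2ak3, the gene of the endoplasmic reticulum stress sensor PERK, had 21.01, 30.5 and 45.2 CPM in the tyramine libraries, against 48.6, 41.1 and 42.6 CPM in the control libraries. Tyramine replicate 3 was at the control level and the other two were below it (log2 fold change -0.45, SE 0.269), and without that replicate Eif2ak3 was called falling. Eif2ak4, the gene of GCN2, which senses uncharged tRNA, had 22.2, 12.2 and 15.1 CPM in the tyramine libraries, against 8.23, 19.4 and 17.4 CPM in the control libraries. The groups overlapped widely (log2 fold change 0.13, SE 0.387), and the sign turned without tyramine replicate 1 or without control replicate 1. Summed over the family, the kinases had 286 ± 7.29 CPM with tyramine and 295 ± 13.98 CPM in controls (SD, n = 3 each). Per length, Eif2ak1 made up 34.3%, 40.1% and 29.0% of the family in the tyramine libraries, against 25.8%, 23.1% and 19.8% in the control libraries. Eif2ak2 was the most abundant per length in every library, at 46.0% to 51.8% with tyramine and 55.3% to 62.2% in controls. Neither share overlapped between the groups. The shares are given as a description, without a test.

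**Figure D2:**
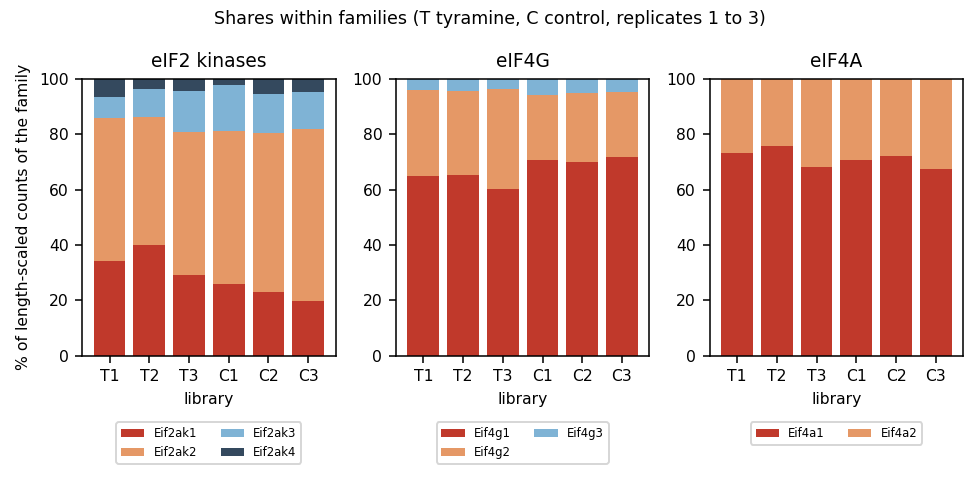
Share of each gene in its family (percent of length-scaled counts, vertical axis) in the 3 tyramine (T) and 3 control (C) libraries. Eif2ak1 takes 29.0% to 40.1% of the kinase counts with tyramine and 19.8% to 25.8% in controls, Eif4g2 takes 30.1% to 36.3% and 23.4% to 24.8% of the eIF4G counts, and the eIF4A shares overlap.

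eIF2B, the exchange factor that recharges eIF2 with GTP, was split among its subunit genes. Eif2b2, the beta subunit gene, had 86.5, 105 and 75.5 CPM in the tyramine libraries, against 58.2, 49.97 and 58.7 CPM in the control libraries. It rose 1.60-fold without overlap (log2 fold change 0.68, with SE 0.164; edgeR adjusted p = 0.013), and the call was lost without control replicate 2. Eif2b4, the delta subunit gene, had 69.4, 80.5 and 62.7 CPM in the tyramine libraries, against 48.5, 49.6 and 51.3 CPM in the control libraries. The groups were apart (log2 fold change 0.51, SE 0.155; edgeR adjusted p = 0.037), yet this call held only without tyramine replicate 3 among the leave-one-out fits, and it was lost with library totals alone and with a replicate block. Eif2b1, the alpha subunit gene, had 26.3, 27.99 and 20.2 CPM in the tyramine libraries, against 44.0, 31.9 and 40.7 CPM in the control libraries. It was the one eIF2B gene wholly below the controls (log2 fold change -0.65, SE 0.225; edgeR adjusted p = 0.061), and was called falling by DESeq2 and with library totals alone. Eif2b3, the gamma subunit gene, and Eif2b5, the catalytic epsilon subunit gene, overlapped between groups, with log2 fold changes of 0.45 (SE 0.237) and -0.15 (SE 0.115). Eif2a and Eif2d, which encode alternative carriers of initiator tRNA outside the eIF2 complex, had log2 fold changes of 0.03 (SE 0.167) and -0.39 (SE 0.202), neither past the threshold.

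eIF3, the largest initiation factor, bridges the small ribosomal subunit and eIF4F, and its genes Eif3a and Eif3c held the highest levels of all members per length. Of its 14 genes 7 rose, none fell past the threshold and 7 did not pass the test, with a median log2 fold change of 0.37; at an unadjusted p under 0.05, 9 were higher and 0 lower, and DESeq2, limma-voom and every leave-one-out fit also called 0 falling. Eif3d, whose product can bind the mRNA cap itself (chromosome 15, 77958998 to 77970813, minus strand), had 419, 455 and 480.3 CPM in the tyramine libraries, against 298, 281 and 305 CPM in the control libraries. It rose 1.53-fold with wide separation (log2 fold change 0.61, with SE 0.0933; edgeR adjusted p = 0.0011). An antisense gene, Gm17638, covers 43.3% of its exon bases, and reads of the pair may not be told apart. Eif3c, a core subunit gene, had 1815, 1832 and 2062 CPM in the tyramine libraries, against 1405, 1393 and 1489 CPM in the control libraries, a 1.33-fold rise.

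Eif3j encodes a loosely bound subunit that helps eIF3 join and leave the ribosome. It has 2 gene entries, Eif3j1 on chromosome 2 and Eif3j2 on chromosome 18. Their counts differed by at most 2 in any library, so the same reads appear to have been counted at both. The reason is not given. The 20 rising members thus rest on 19 separate sets of reads. Eif3j1 had 78.0, 76.1 and 101 CPM in the tyramine libraries, against 48.2, 50.6 and 47.2 CPM in the control libraries. The rise was 1.75-fold, without overlap (log2 fold change 0.80, SE 0.159; edgeR adjusted p = 0.0046). Eif3j1 shares 19.0% of its exon bases with the opposite-strand gene Spg11. Smaller shares with opposite-strand genes held for other called members, such as Eif2ak1 (8.59% with Aimp2) and Eif2b4 (7.85% with Snx17). Eif3m, a subunit gene of the structural core, had 50.3, 59.9 and 90.1 CPM in the tyramine libraries, against 40.9, 39.7 and 37.8 CPM in the control libraries. Tyramine replicate 3 stood above the other two, and the call (log2 fold change 0.76, SE 0.221; edgeR adjusted p = 0.030) was lost without that library, without any 1 control library, with library totals alone and with a replicate block.

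Eif3b and Eif3g, genes of the module that contacts the mRNA channel, rose 1.27-fold and 1.31-fold. Without control replicate 1 or 2 both calls were lost, and without tyramine replicate 1 that of Eif3g was lost too. Grouped by structure, a split made after the values were seen, the 8 genes of the PCI and MPN domain core had a median log2 fold change of 0.30 with 2 rising, Eif3c and Eif3m. The other 6, Eif3j1 and Eif3j2 among them, had a median of 0.50 with 5 rising, all but Eif3i (log2 fold change -0.07, SE 0.133). Eif3j1 and Eif3j2 appear to repeat the same reads (log2 fold change 0.80 each). This median and this count therefore rest in part on a repeated row, and the difference between the parts was not tested. Eif3a, the scaffold gene of the core, was the most abundant member at 4312 ± 300.2 CPM with tyramine and 3701 ± 376 CPM in controls (SD, n = 3 each), and the groups overlapped (log2 fold change 0.22, SE 0.0918). Eif3h, with no overlap, was higher (0.25, SE 0.0983; edgeR adjusted p = 0.090) and passed by DESeq2 and without tyramine replicate 3. Eif3l, also with no overlap, was lower (-0.23, SE 0.111). Eif3e, Eif3f and Eif3k had log2 fold changes of 0.36, 0.39 and 0.08, none past the threshold. Eif3a was called rising without control replicate 3 and by limma-voom, and Eif3e without tyramine replicate 3.

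**Figure D3:**
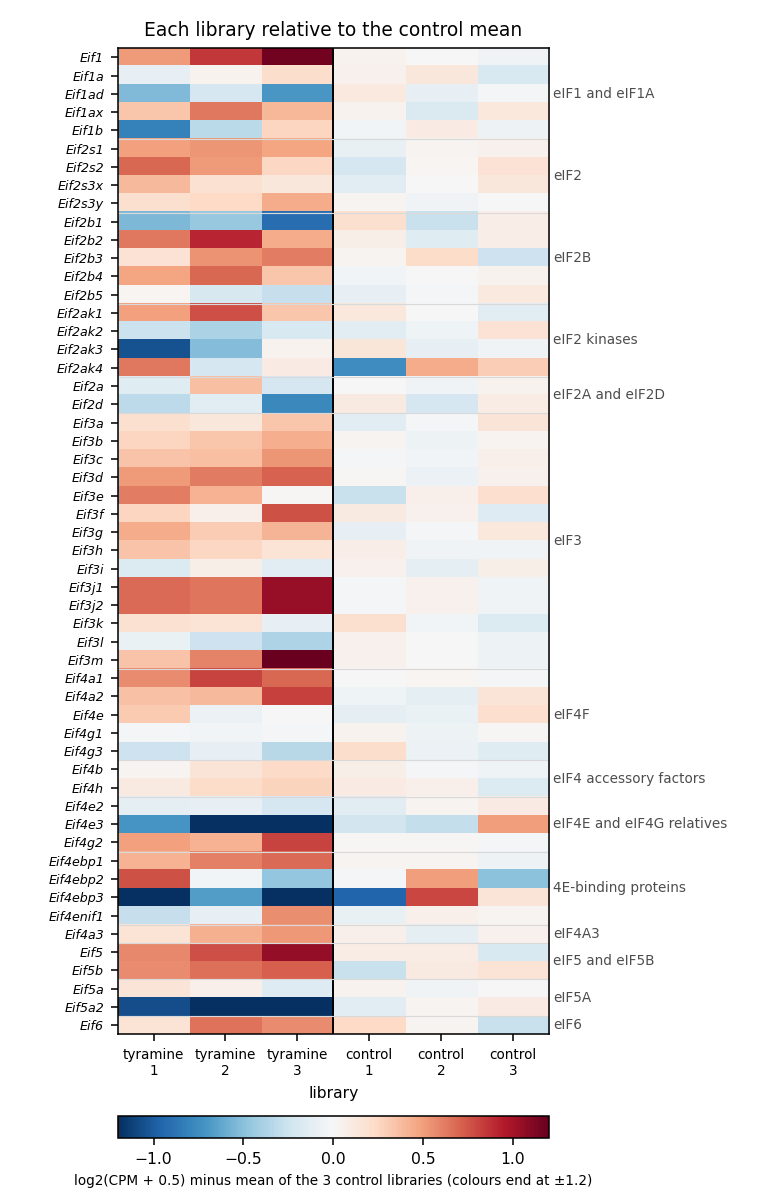
Each of the 54 tested members in each library, as log2(CPM + 0.5) minus the mean of the 3 control libraries (red higher, blue lower). Rows such as Eif2s1 and Eif3d are evenly red in all 3 tyramine libraries, Eif1, Eif3j1, Eif3j2 and Eif3m are darkest in tyramine replicate 3, and Eif4g1 is pale throughout.

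Within eIF4F the helicase genes rose and the cap-binding and scaffold genes did not. Eif4a1, the main RNA helicase gene of the complex (chromosome 11, 69666936 to 69672423, minus strand), had 384, 454 and 417 CPM in the tyramine libraries, against 258, 264 and 255 CPM in the control libraries. Controls lay within a narrow band and every tyramine library was well above it, a 1.61-fold rise (log2 fold change 0.69, with SE 0.0960; edgeR adjusted p = 0.00065), the smallest p of any member. Its paralog Eif4a2 had 216, 221 and 298 CPM in the tyramine libraries, against 163, 157 and 188 CPM in the control libraries. It rose 1.45-fold (log2 fold change 0.53, with SE 0.143), a call lost without control replicate 1 or 2. Eif4a1 made up 68.1% to 75.8% of the pair per length with tyramine and 67.4% to 72.0% in controls, so the balance between them overlapped.

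Eif4g1, the main scaffold gene of eIF4F (chromosome 16, 20668313 to 20692884, plus strand), had 1623, 1609.7 and 1617 CPM in the tyramine libraries, against 1703, 1579.9 and 1666 CPM in the control libraries. The tyramine values lay inside the control range (log2 fold change -0.03, SE 0.0728; edgeR adjusted p = 0.83). Eif4e, the cap-binding protein gene, had 91.6, 70.2 and 74.2 CPM in the tyramine libraries, against 67.9, 69.6 and 85.0 CPM in the control libraries. The groups overlapped (log2 fold change 0.08, SE 0.161), and the sign turned without tyramine replicate 1. Eif4g3, a second scaffold gene, had a log2 fold change of -0.23 (SE 0.128). Eif4b and Eif4h, genes of helicase cofactors, had 0.14 (SE 0.0874) and 0.19 (SE 0.106). None of these 3 passed the threshold.

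Eif4g2 encodes DAP5, an eIF4G relative that does not bind eIF4E and serves cap-independent and other special modes of initiation (chromosome 7, 111067750 to 111083030, minus strand). It had 1106, 1049 and 1384 CPM in the tyramine libraries, against 796, 793 and 772 CPM in the control libraries. All tyramine libraries were above all controls and tyramine replicate 3 was the highest, a 1.50-fold rise (log2 fold change 0.58, with SE 0.109; edgeR adjusted p = 0.0034). Per length, Eif4g2 made up 31.1%, 30.1% and 36.3% of the counts of the 3 eIF4G genes in the tyramine libraries, against 23.4%, 24.8% and 23.5% in the control libraries. Eif4g1 made up 60.2% to 65.4% with tyramine and 70.1% to 71.8% in controls, also without overlap.

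Among the genes that hold eIF4E in check, Eif4ebp1 rose. Eif4ebp1 encodes the 4E-binding protein best known as a target of mTORC1 and, in stress, of the transcription factor ATF4 (chromosome 8, 27260329 to 27276674, plus strand). It had 82.6, 94.1 and 99.2 CPM in the tyramine libraries, against 63.2, 63.1 and 59.3 CPM in the control libraries. The groups did not overlap and the rise was 1.49-fold (log2 fold change 0.57, with SE 0.136; edgeR adjusted p = 0.012), lost without control replicate 2 or 3. Eif4ebp2 had 18.1, 10.3 and 7.45 CPM in the tyramine libraries, against 10.4, 15.1 and 7.30 CPM in the control libraries, with wide overlap (log2 fold change 0.13, SE 0.437). Eif4ebp3 had 2, 24 and 7 counts in the tyramine libraries, against 16, 108 and 49 counts in the control libraries, and shares 67.3% of its exon bases with a readthrough gene. Eif4enif1, the gene of the eIF4E transporter 4E-T, which takes eIF4E into the nucleus and to mRNA decay bodies, had 52.3, 59.3 and 93.2 CPM in the tyramine libraries, against 59.4, 66.0 and 64.7 CPM in the control libraries. Only tyramine replicate 3 was above the controls (log2 fold change 0.11, SE 0.214), and the sign turned without it. Per length, Eif4ebp1 made up 92.8% to 96.9% of the 3 4E-binding protein genes with tyramine and 82.8% to 92.7% in controls.

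**Figure D4:**
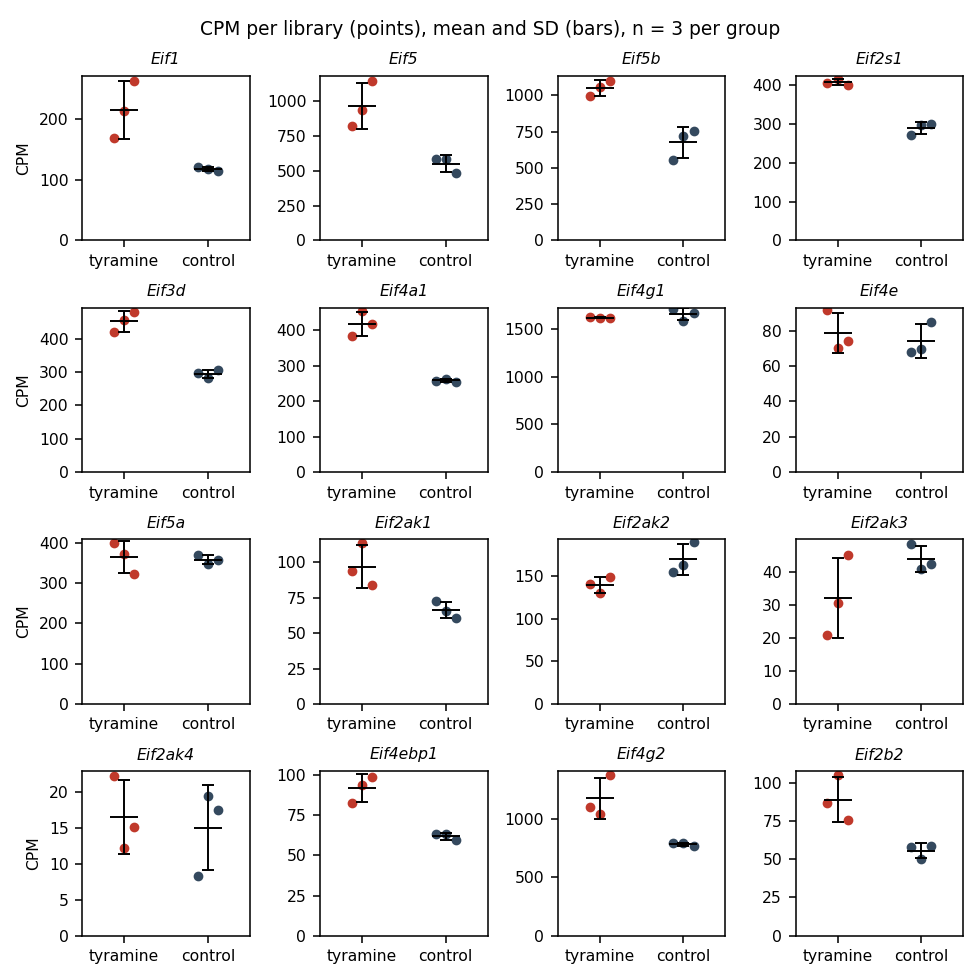
CPM of 16 members in each library (points), with the mean and SD of the 3 tyramine and the 3 control libraries; each vertical axis starts at 0. Eif1, Eif5, Eif5b, Eif2s1, Eif3d, Eif4a1, Eif4ebp1, Eif4g2, Eif2b2 and Eif2ak1 separate upward without overlap, Eif4g1, Eif4e, Eif5a, Eif2ak3 and Eif2ak4 overlap, and Eif2ak2 lies lower with tyramine without passing the test.

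The remaining members did not pass the test. Eif5a, whose product carries the modified amino acid hypusine and helps ribosomes through difficult peptide bonds, averaged 365 ± 39.1 CPM with tyramine and 358 ± 11.0 CPM in controls (SD, n = 3 each; log2 fold change 0.03, SE 0.102). Its paralog Eif5a2 had 26, 18 and 2 counts in the tyramine libraries, against 67, 92 and 76 counts in the control libraries. Eif4e3, an eIF4E relative, had 117, 30 and 70 counts in the tyramine libraries, against 182, 207 and 291 counts in the control libraries. Both were lower in all 3 tyramine libraries, but their log2 fold changes of -2.24 (SE 1.12) and -1.54 (SE 0.666) did not pass (edgeR adjusted p = 0.18 and 0.12). Eif4e2, the gene of the translational repressor 4EHP, had a log2 fold change of -0.14 (SE 0.105). Eif4a3, an eIF4A relative that works in the exon junction complex and not in initiation, was higher in all 3 tyramine libraries (log2 fold change 0.38, SE 0.155; edgeR adjusted p = 0.10). Eif6, whose product keeps the ribosomal subunits apart, had 0.46 (SE 0.166; edgeR adjusted p = 0.070) and passed by DESeq2, by limma-voom and without tyramine replicate 1. Eif4e1b, a germline eIF4E relative, had 2 counts in control replicate 1 and 0 in the other 5 libraries, under the floor of 3 counts per library, so no fold is given.

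Levels of different genes were compared per length, as counts per kilobase of the longest coding transcript scaled to one total in each library. On this scale control means ran from 0.0252 for Eif4e1b and 1.18 for Eif5a2 to 1732 ± 133 for Eif3a and 1014 ± 13.3 for Eif3c (SD, n = 3), with Eif4g1 the third at 703 ± 30.8, followed by Eif5a at 598 ± 25.01 and Eif3g at 512 ± 28.7. The counts per length of subunits of the same complex were far from equal. This scale, and the family shares built on it, depend on the annotated transcript length. Eif3j1 and Eif3j2, with near equal counts, had control means of 21.6 and 49.1 at lengths of 5413 and 2379 bases. The part of annotation in the other differences between genes was not tested. Within eIF3, Eif3a was at 1862 ± 176 with tyramine and 1732 ± 133 in controls, and Eif3m was at 116 ± 39.4 and 73.9 ± 4.71. Eif4e was at 34.8 ± 4.28 with tyramine and 35.6 ± 3.59 in controls, below Eif4g1 at 634 ± 17.8 and 703 ± 30.8 and below Eif4ebp1 at 102 ± 12.2 and 74.5 ± 4.46. Unlike the CPM, these levels carry no TMM factor and do not serve to compare the groups. In the edgeR fit, Eif4g1 had a log2 fold change of -0.03 (SE 0.0728). The kinase order per length was Eif2ak2, Eif2ak1, Eif2ak3 and Eif2ak4 by the mean of either group.

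**Figure D5:**
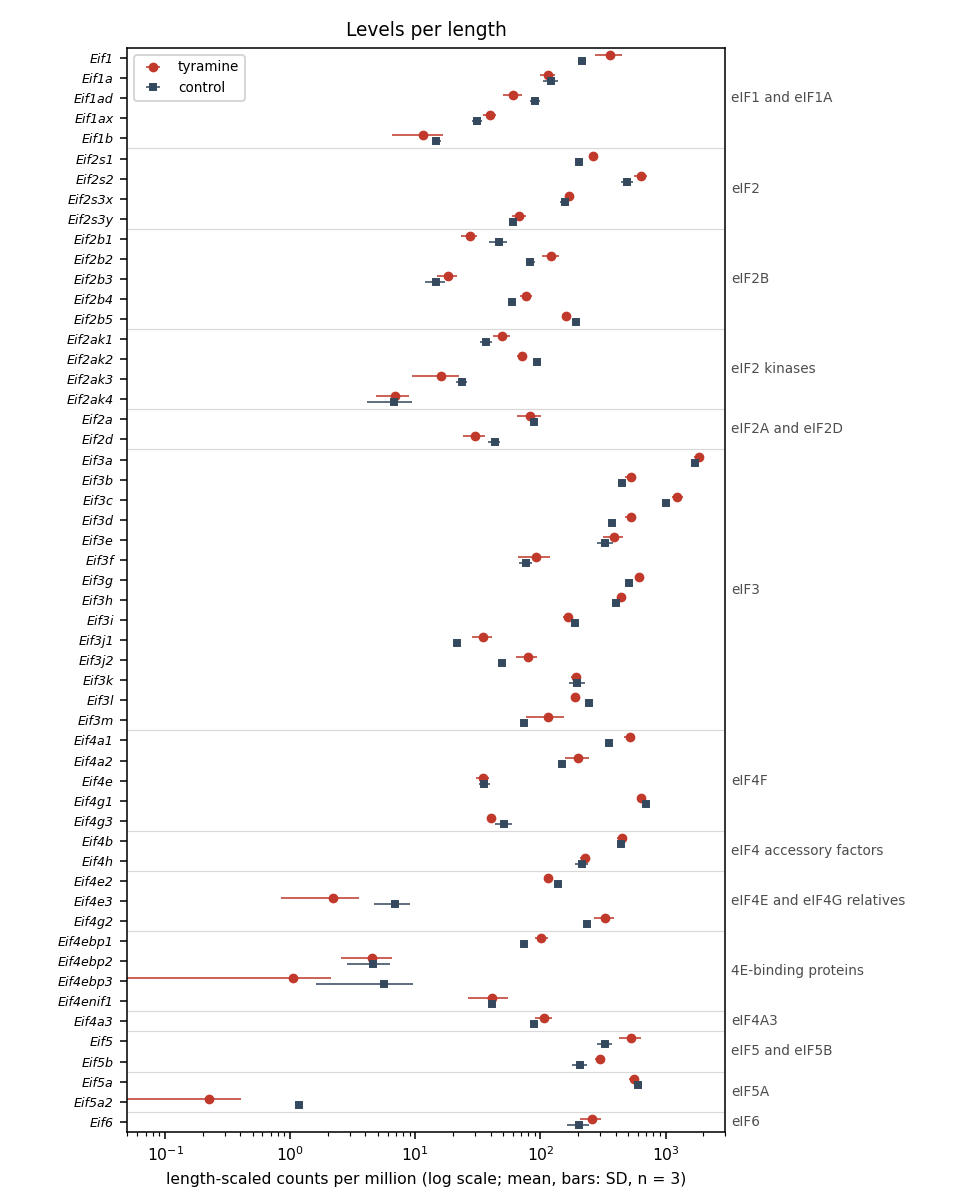
Length-scaled counts per library (the unit TPM, log scale, mean with SD, n = 3) for 54 members, all but Eif4e1b. In each row the tyramine marker is drawn on the upper line and the control marker on the lower line, whichever value is larger. Eif3a and Eif3c are highest in both groups, and Eif5a2, Eif4e3, Eif4ebp2, Eif4ebp3 and Eif2ak4 are lowest.

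Promoters were read because many members moved together. RefSeq windows from 250 bases before to 50 bases after an annotated start (GRCm38.p6) were given for 43 members, 17 of them rising. Eif1a, Eif2b3, Eif3e, Eif3h, Eif3i, Eif3j2, Eif4e1b, Eif4e3, Eif4ebp1, Eif4ebp3, Eif4g2 and Eif6 had none. Each motif was searched on both strands, and overlaps with other motifs were allowed. The E-box CACGTG, a motif bound by MYC and related factors, was present for 10 of the 43 members (23.3%), against 8.09% of all genes with a window and 11.9% of the tested genes with one. Among the 17 rising members 1 held it, Eif4a1, and among the 26 that were not called 9 did. Of all 1187 rising genes with a window, 12.6% held it. These counts are descriptions, and base composition was not matched. The antioxidant response element core TGACNNNGC was present for 8 of 43 members (18.6%), and 3 of the 17 rising members held it. With a window, 17.1% of tested genes and 21.3% of all rising genes held this core. TGATGNAA, the core of the element bound by C/EBP and ATF factors, was present for 1 of 43 members, against 2.77% of tested genes. The following stretches, each upstream of a RefSeq start, show E-boxes of 3 members that were not called, with the motif in capitals and 20 bases on either side. Those of Eif4g1 and Eif5a lie inside the GENCODE span of the gene, whose first start is farther upstream.
Eif4g1 (chr16:20672653-20672698, plus strand, 54 bases upstream): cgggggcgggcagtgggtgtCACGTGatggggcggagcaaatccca
Eif5a (chr11:69921435-69921480, minus strand, 74 bases upstream): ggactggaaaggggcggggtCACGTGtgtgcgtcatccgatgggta
Eif3f (chr7:108934327-108934372, plus strand, 68 bases upstream): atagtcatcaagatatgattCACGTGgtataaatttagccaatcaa
The next 2 belong to rising members: the E-box of Eif4a1 and the antioxidant response element core of Eif1, in capitals.
Eif4a1 (chr11:69672587-69672632, minus strand, 189 bases upstream): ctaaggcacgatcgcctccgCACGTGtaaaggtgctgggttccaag
Eif1 (chr11:100319826-100319874, plus strand, 103 bases upstream): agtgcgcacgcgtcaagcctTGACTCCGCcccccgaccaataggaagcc

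Other genes of the pathway were counted against the same 12.5% of all tested genes that rose. Of 6 tested regulators of eIF2 phosphorylation, 3 rose (Ppp1r15a, Ppp1r15b and Impact), none fell and the median log2 fold change was 0.31. Ppp1r15a encodes GADD34, the inducible subunit of the phosphatase that removes phosphate from eIF2 alpha. It had 289, 371 and 724 CPM in the tyramine libraries, against 48.3, 36.1 and 28.6 CPM in the control libraries (log2 fold change 3.62, SE 0.355; edgeR adjusted p = 0.00012), far beyond any member. Of 28 genes of mTORC1 and cap-binding control, 5 rose and none fell, led by Ncbp1, which encodes a nuclear cap-binding protein (log2 fold change 0.79). Of 8 scanning, recycling and hypusine genes, the helicase gene Ddx3x rose (log2 fold change 0.39). Of 13 elongation and termination factor genes, the release factor gene Etf1 rose (0.60), as did Hbs1l (0.55), whose product rescues stalled ribosomes. None fell in either list by edgeR. Of 83 tested cytosolic ribosomal protein genes, 4 rose, Rpl3 fell (log2 fold change -0.31) and 78 did not pass the test, with a median log2 fold change of 0.15. At an unadjusted p under 0.05 the 4 lists without a falling gene held 1, 0, 0 and 2 lower genes, in the order given, and DESeq2 called 0, 0, 0 and 1 falling.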

How the data were processed

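The authors deposited 1 table of raw counts per gene symbol, with 1 column per library. Per the labels' protocols, total RNA entered a stranded mRNA kit with molecular identifiers, and the submitters' processing notes name STAR 2.5.3a and mm10; the counting program, annotation, strand setting and use of the identifiers are not stated in any source used here. Values of 1 to 8 counts were even in 72.6% to 78.7% of cases per library, so a count may not be 1 molecule. Members, complexes, lists and motifs were chosen with earlier results of these data known. All members are named, and the member of smallest p per list. The eIF3 split, Ppp1r15b, Impact, Paip2b, Tsc1, Akt1s1, Paip2, Hbs1l, Vil1, Epcam, Krt18 and Cdh1 were chosen after values were seen.

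The fit used all 6 libraries and 12139 genes left by filterByExpr (minimum count 10, minimum total 15), TMM factors of 0.962 to 1.04, and edgeR 4.0.16 (R 4.3.3) quasi-likelihood tests with robust estimation and Benjamini-Hochberg adjustment over all tested genes. Each SE was obtained as the ratio of a log2 fold change to the root of its F statistic. Lengths and positions came from GENCODE M21 (GRCm38, the mm10 assembly), promoters from RefSeq. Chi-square per degree of freedom between replicates was 52.5 to 98.5 with tyramine and 26.7 to 34.9 in controls, above counting noise in every pair, so no library was counted as a repeat deposit of another. Alternatives were DESeq2 1.42.0, limma-voom (limma 3.58.1), RLE factors, scaling by library totals, a filter at 1 CPM or none, no robust estimation, a replicate block and each library left out. Leaving out Eif3j1 was added after the data were seen.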

Additional observations from a re-analysis of the deposited data

How the results depend on the processing

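The 20 rising members were 10 to 21 with each library left out (10 without control replicate 2, 12 without control replicate 1), 16 with library totals alone or with a replicate block, 19 to 22 in the 6 other alternatives, and 19 without Eif3j1. Falling members were 0 in the reported fit, 3 with library totals alone (Eif1ad, Eif2ak2 and Eif2b1), 2 with DESeq2 (Eif1ad and Eif2b1), 1 with limma-voom (Eif1ad) and 0 to 1 with each library left out. Over the whole table the 3127 calls were 1977 to 3307 with each library left out, the 1518 rising 934 to 1510 and the 1609 falling 1035 to 1797. The calls numbered 2933 to 3307 without 1 tyramine library and 1977 to 2075 without 1 control library. Each of these fits held 1 library fewer, and the cause of the difference was not tested. No called member changed sign under any alternative. Uncalled members that did, each not past the threshold in any of these settings, were Eif1a, Eif2a, Eif3k and Eif5a with library totals alone (log2 fold changes -0.038, -0.057, -0.0065 and -0.058). With each library left out the log2 fold change ran from -0.040 to 0.13 for Eif1a, -0.60 to 0.0002 for Eif1b, -0.17 to 0.13 for Eif2a, -0.17 to 0.36 for Eif2ak4, -0.0009 to 0.18 for Eif3k, -0.037 to 0.19 for Eif4e, -0.30 to 0.43 for Eif4ebp2, -0.18 to 0.27 for Eif4enif1 and -0.040 to 0.11 for Eif5a, so each sign rests on single libraries.

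Same-numbered libraries did not deviate together (correlations -0.0188, -0.0105 and 0.0109 for numbers 1, 2 and 3). Differently numbered pairs were also near 0, the highest at 0.0239 (tyramine replicate 1 and control replicate 2). With 3 libraries per group, these values cannot exclude that same-numbered libraries shared a mouse or culture. With a replicate block 16 members rose, all among the 20. Eif5a2, Eif4e3 and Eif4ebp3, with 2 to 291 counts per library, have SE of 0.666 to 1.27 on the log2 scale, and their differences did not pass the threshold. The part of depth in these SE was not tested.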
